A study of Homo sapiens with 2 samples.

Results

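RNA was sequenced from TRPV3-OE cells, BEAS-2B cells made to overexpress the cation channel TRPV3, and from parental BEAS-2B cells, an immortalised human bronchial epithelial line labelled WT. The genes described here are 41 genes of glutathione and thioredoxin metabolism and of the NRF2 antioxidant response, out of 58051 annotated genes, taken by symbol from a list of peroxide-removing, NADPH-supplying, iron-storing and regulatory genes. Each group is 1 library of cells grown in LHC-9 medium on collagen and fibronectin and frozen at confluence, with no agent named in the labels. The TRPV3-OE cells were between passage 4 and 8 and the parental cells between passage 20 and 30, so passage and overexpression cannot be told apart, and how the overexpressing line was made is not given in the sources used here.

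NRF2, encoded by NFE2L2, is a transcription factor that KEAP1 holds in the cytosol and hands to a ubiquitin ligase. Oxidants and electrophiles modify KEAP1, after which NRF2 pairs with a small MAF protein and binds the antioxidant response element of its target genes. Those targets make glutathione, keep thioredoxin reduced, supply NADPH, conjugate electrophiles and store iron, and airway epithelium, which meets inhaled oxidants, relies on them.

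TRPV3 itself had 54077 counts in the TRPV3-OE library and 26 in the parental library, of totals of 17477953 (TRPV3-OE) and 17450658 (parental). Airway epithelial markers (EPCAM, CDH1, KRT5, KRT8, KRT17, KRT18, KRT19 and TP63) were all measured and summed to 4554 CPM (counts scaled to 1000000 per library) in TRPV3-OE and 4655 CPM in parental cells, but single markers differed in both directions. The basal keratin KRT17 had 6582 counts in TRPV3-OE and 12968 in parental cells (log2 ratio −1.03), KRT5 was at −0.40 and TP63 at −0.41, whereas EPCAM was at 0.55, KRT19 at 0.45, KRT8 at 0.38, KRT18 at 0.35 and CDH1 at −0.09. Of the markers of other cells only COL1A1 and CDH5 were measured. CDH5, an endothelial marker, had 35 counts (1.97 CPM) in TRPV3-OE and 268 (15.6 CPM) in parental cells. It makes up most of the endothelial sum given next. The endothelial PECAM1 had 23 counts in TRPV3-OE and 14 in parental cells. Summed levels were 16.4 CPM in TRPV3-OE and 24.4 CPM in parental cells over 7 fibroblast markers, 3.26 CPM in TRPV3-OE and 16.7 CPM in parental cells over 5 endothelial markers, and 0.168 CPM in TRPV3-OE and 0.175 CPM in parental cells over 6 immune markers. The 5 red cell markers, PTPRC, COL3A1, LUM, KDR and TEK were at 0 counts in both libraries, and what part these markers have in the results was not tested. In bulk RNA, fewer cells of a type and less RNA per cell cannot be told apart. As each group has only 1 library, the differences have no replicate check and carry no p-value. Log2 ratios divide TRPV3-OE by parental and come with exact 95% intervals. These cover counting error only, and not the spread between cultures or library preparations. Reads amplified by PCR are not independent molecules, so the intervals can be too narrow even for counting error.

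Of the measured antioxidant genes 27 lay within 1.5-fold of equality, 9 were at least 1.5-fold lower in TRPV3-OE and 3 at least 1.5-fold higher. A gene counted as measured when its counts over both libraries summed to at least 100, which 39 of the 41 genes did. SRXN1 and GPX2 did not. Among the 39, 2 were at least 2-fold higher in TRPV3-OE (5.13%), where 5.31% of all 11466 measured genes were, and 5 were at least 2-fold lower (12.8%), where 5.35% of all measured genes were. Such a call also needed an interval wholly on its side of equality. At 1.5-fold, the 3 higher genes were 7.69% of the 39, against 12.7% of all measured genes, and the 9 lower ones 23.1%, against 14.2%. The higher genes were GSTM3, GCLM and, between 1.5-fold and 2-fold, ME1. GPX3, NQO2, SLC7A11, CAT and GPX8 were at least 2-fold lower, and HMOX2, GSTP1, TALDO1 and NQO1 lay between 1.5-fold and 2-fold lower.

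The median log2 ratio over the 39 measured genes was −0.21, against −0.03 over all measured genes. Of the 39, 27 (69.2%) had a ratio below 0, where 53.0% of all measured genes did, and 24 of those 27 had intervals wholly below 0. The other 12 had intervals wholly above 0. The 41 genes together took 0.711% of the TRPV3-OE counts and 0.822% of the parental counts.

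**Figure D1:**
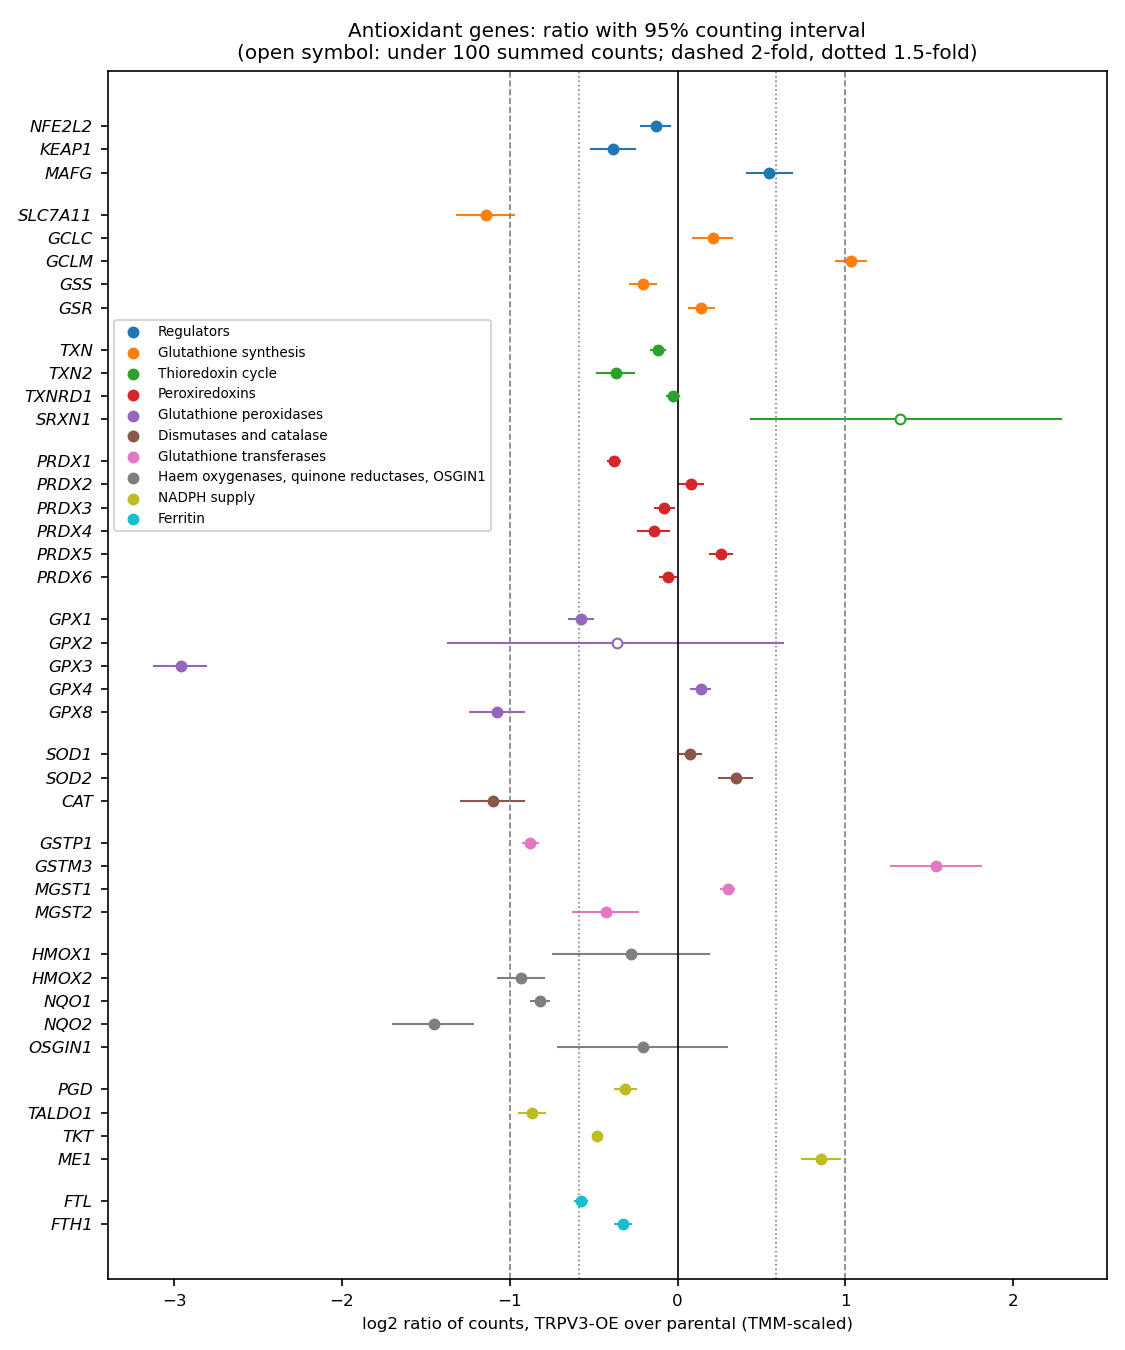
The log2 ratio of TMM-scaled counts, TRPV3-OE over parental, is drawn for each of the 41 genes by role, with its 95% counting interval. GPX3 stands farthest to the left at −2.96 and GSTM3 farthest to the right of the measured genes at 1.54, while the 6 peroxiredoxins lie between −0.38 and 0.26.

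**Figure D2:**
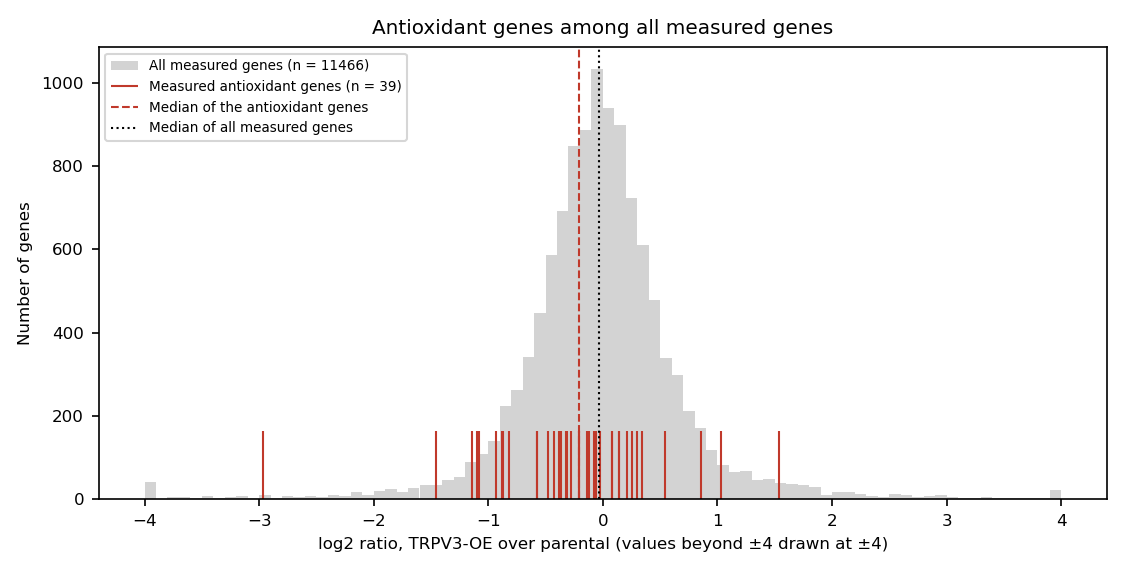
The histogram counts all 11466 measured genes by log2 ratio, with the 39 measured antioxidant genes as red ticks. The median of the antioxidant genes (dashed, −0.21) lies left of that of all measured genes (dotted, −0.03), and most ticks fall inside the bulk of the histogram.

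The regulators stayed within 1.5-fold, where 26.9% of all measured genes were past it in either direction. NFE2L2 (ENSG00000116044) had 1808 counts (102 CPM, 96.9 to 106) in TRPV3-OE and 1904 (111 CPM, 106 to 116) in parental cells, a log2 ratio of −0.13 (−0.22 to −0.04). KEAP1, which targets NRF2 for degradation, had 771 counts (43.3 CPM) in TRPV3-OE and 968 (56.5 CPM) in parental cells (log2 ratio −0.38, −0.52 to −0.25). MAFG, a small MAF partner of NRF2, went the other way at 1047 counts (58.8 CPM) in TRPV3-OE against 690 (40.3 CPM) in parental cells. Its log2 ratio of 0.55 (0.41 to 0.69) is just under 1.5-fold with TMM scaling and just over it under each of 3 other scalings (0.59 to 0.60). The length-scaled level of KEAP1 over that of NFE2L2 was 0.678 in TRPV3-OE and 0.808 in parental cells. A gene that lies over NFE2L2 on its strand covers 17.6% of its exonic bases, and reads in such overlaps were not counted for either gene.

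The antioxidant response element has the core TGACNNNGC, where N is any base. The 250 bases before the RefSeq start were searched on both strands for the 31 of 41 genes with such a window, which leaves SLC7A11, GSS, GSR, TXN2, PRDX1, PRDX6, SOD1, MGST2, HMOX1 and FTH1 unsearched. The core was found for 7 of the 31 (22.6%), namely GCLM, ME1, TXNRD1, GSTP1, PGD, KEAP1 and GPX2, and for 13.2% of 27305 genes with a window. Bases farther from the start were not searched, so genes without a match here, such as NQO1 and GCLC, may still hold the element. Windows are printed for 4 genes that carry the core and differ in their ratio, since GCLM and ME1 were higher, GSTP1 lower and TXNRD1 nearly equal. Capitals mark the core, and each window reads 5′ to 3′ along the gene, from RefSeq on GRCh38.p14.
GCLM (chr1:93909431-93909680, minus strand): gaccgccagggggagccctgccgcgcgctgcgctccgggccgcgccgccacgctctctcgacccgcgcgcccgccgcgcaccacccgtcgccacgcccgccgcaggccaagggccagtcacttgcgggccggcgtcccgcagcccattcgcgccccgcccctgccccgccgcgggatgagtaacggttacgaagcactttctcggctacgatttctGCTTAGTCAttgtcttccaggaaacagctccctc
ME1 (chr6:83431052-83431301, minus strand): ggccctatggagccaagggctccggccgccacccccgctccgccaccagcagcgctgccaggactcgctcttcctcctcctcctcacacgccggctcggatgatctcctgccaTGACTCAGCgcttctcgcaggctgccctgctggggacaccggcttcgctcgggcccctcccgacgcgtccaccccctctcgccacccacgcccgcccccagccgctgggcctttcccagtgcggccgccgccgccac
GSTP1 (chr11:67583562-67583811, plus strand): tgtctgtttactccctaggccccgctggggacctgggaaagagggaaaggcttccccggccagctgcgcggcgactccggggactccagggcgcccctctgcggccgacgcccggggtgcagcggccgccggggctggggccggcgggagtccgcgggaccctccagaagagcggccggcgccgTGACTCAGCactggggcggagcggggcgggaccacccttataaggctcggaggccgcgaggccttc
TXNRD1, upstream start (chr12:104215529-104215778, plus strand): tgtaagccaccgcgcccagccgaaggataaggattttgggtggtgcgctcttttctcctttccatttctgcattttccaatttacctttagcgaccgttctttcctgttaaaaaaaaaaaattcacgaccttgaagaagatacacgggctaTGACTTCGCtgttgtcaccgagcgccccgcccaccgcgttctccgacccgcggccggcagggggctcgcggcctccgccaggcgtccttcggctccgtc
TXNRD1, downstream start (chr12:104286782-104287031, plus strand): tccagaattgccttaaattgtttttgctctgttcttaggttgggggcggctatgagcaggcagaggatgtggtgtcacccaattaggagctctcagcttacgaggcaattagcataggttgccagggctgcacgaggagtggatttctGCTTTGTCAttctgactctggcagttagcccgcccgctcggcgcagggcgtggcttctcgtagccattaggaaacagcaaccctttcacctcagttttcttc
In GCLM and at the downstream start of TXNRD1 the core lies on the opposite strand, so the capitals show its reverse complement. It begins 137 bases before the start in ME1 and 66 before it in GSTP1. Both hold TGACTCAGC, in which 7 of the 9 bases also match TGANTCA, the AP-1 motif, found for 8.06% of all genes with a window. A match describes these letters and is no evidence of binding, and genes with one lay on both sides of equality.

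Glutathione synthesis split by gene. GCLM (ENSG00000023909, chromosome 1, 93885205 to 93909456, minus strand, GRCh38), the modifier subunit of the rate-limiting ligase, had 2722 counts (153 CPM, 147 to 159) in TRPV3-OE and 1280 (74.7 CPM, 70.7 to 78.9) in parental cells. That is 2.05-fold higher, a log2 ratio of 1.03 (0.94 to 1.13). GCLC, the catalytic subunit of the same ligase, had 1209 counts in TRPV3-OE and 1006 in parental cells (log2 ratio 0.21, 0.09 to 0.33). Scaled by length, GCLM stood at 3.52 times the level of GCLC in TRPV3-OE and 1.99 times in parental cells.

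SLC7A11, which brings in the cystine from which the cysteine of glutathione is made, was lower, with 385 counts (21.6 CPM, 19.5 to 23.9) in TRPV3-OE and 818 (47.8 CPM, 44.5 to 51.2) in parental cells. Its log2 ratio was −1.14 (−1.32 to −0.97), a 2.21-fold difference. GSS, which adds glycine in the last step of synthesis, had 2177 counts in TRPV3-OE and 2418 in parental cells (log2 ratio −0.21, −0.29 to −0.12). GSR, which reduces oxidised glutathione with NADPH, had 2841 counts in TRPV3-OE and 2476 in parental cells (log2 ratio 0.14, 0.06 to 0.22). So 1 of the 5 genes was at least 2-fold higher, where 5.31% of all measured genes were, and 1 at least 2-fold lower, where 5.35% were. The other 3 lay within 1.5-fold.

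Thioredoxin and its partners differed little. TXN, the cytosolic thioredoxin, was the second most abundant of the 41 genes in TRPV3-OE at 1316 TPM (the same scale after division by gene length) and the third in parental cells at 1365 TPM, from 7116 counts in TRPV3-OE and 7429 in parental cells. Its log2 ratio was −0.12 (−0.17 to −0.07). TXNRD1, the cytosolic reductase that recharges thioredoxin with NADPH, had 9572 counts in TRPV3-OE and 9368 in parental cells. Its log2 ratio of −0.03 (−0.07 to 0.02) changed sign under each of 3 other scalings (0.02 to 0.03), so no direction can be given. TXN2, the mitochondrial thioredoxin, had 1076 counts in TRPV3-OE and 1336 in parental cells (log2 ratio −0.37, −0.49 to −0.25).

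SRXN1, the sulfiredoxin that rescues over-oxidised peroxiredoxins, had only 39 counts in TRPV3-OE and 15 in parental cells (log2 ratio 1.32, 0.43 to 2.29). A gene model known by its ID alone, ENSG00000270299, covers 85.0% of the exonic bases of SRXN1 on its strand. That model had 0 counts in both libraries, and reads that lie in both models are left out by the counter's default, so the SRXN1 level comes from the remaining exonic bases.

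The 6 peroxiredoxins, which reduce peroxides with electrons from thioredoxin or, for PRDX6, glutathione, summed to 3182 TPM in TRPV3-OE and 3270 TPM in parental cells. None reached 1.5-fold. PRDX1, the most abundant and cytosolic, had 8128 counts (1128 TPM) in TRPV3-OE and 10149 (1399 TPM) in parental cells, the lowest ratio of the family at −0.38 (−0.42 to −0.33). PRDX5, found in mitochondria, peroxisomes and cytosol, had the highest, with 3505 counts in TRPV3-OE against 2822 in parental cells (log2 ratio 0.26, 0.18 to 0.33). PRDX6 had 5958 counts in each library and PRDX3, the mitochondrial member, had 3986 in TRPV3-OE and 4048 in parental cells. The cytosolic PRDX2 was at a log2 ratio of 0.08 and PRDX4, of the endoplasmic reticulum, at −0.14. The sign of PRDX6 (log2 ratio −0.06) changed with upper quartile scaling. Windows of 50 bases found also in transcripts of another gene made up 21.0% of PRDX1 and 11.4% of PRDX2, which can lower their counts in both libraries.

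Glutathione peroxidases held the largest difference of the 41 genes. GPX3 (ENSG00000211445, chromosome 5, 151020438 to 151028993, plus strand), which encodes the secreted selenoprotein peroxidase of plasma and airway lining fluid, had 355 counts (19.9 CPM, 17.9 to 22.1) in TRPV3-OE and 2660 (155 CPM, 149 to 161) in parental cells. It was 7.79-fold lower, a log2 ratio of −2.96 (−3.13 to −2.80), and ranked 32 of 41 by TPM in TRPV3-OE against 21 of 41 in parental cells. GPX8 (ENSG00000164294, also on chromosome 5, 55160118 to 55167071, plus strand), a peroxidase of the endoplasmic reticulum, had 443 counts (24.9 CPM) in TRPV3-OE and 899 (52.5 CPM) in parental cells. Its log2 ratio was −1.08 (−1.24 to −0.91), a 2.11-fold difference.

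GPX1, the cytosolic peroxidase, had 2317 counts in TRPV3-OE and 3325 in parental cells, and its log2 ratio of −0.58 (−0.65 to −0.50) lay just short of 1.5-fold. Other transcripts share 14.7% of its 50-base windows. GPX4, which clears lipid hydroperoxides and restrains ferroptosis, had 4265 counts in TRPV3-OE and 3728 in parental cells (log2 ratio 0.14, 0.07 to 0.20). The length-scaled level of GPX4 over that of GPX1 was 1.30 in TRPV3-OE and 0.791 in parental cells, so GPX4 was the more abundant of the pair in TRPV3-OE and GPX1 in parental cells. GPX2, best known from gut epithelium, had 17 counts in TRPV3-OE and 21 in parental cells, and its interval (−1.37 to 0.63) holds 0, so a difference was not detectable at this depth. The median log2 ratio of the 4 measured peroxidases was −0.83, and 2 of them passed 2-fold, both lower, where 5.35% of all measured genes were.

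The superoxide dismutases lay within 1.5-fold and catalase was at least 2-fold lower. SOD1, the copper and zinc enzyme of the cytosol, had 3752 counts in TRPV3-OE and 3424 in parental cells (log2 ratio 0.08, 0.01 to 0.14). SOD2, the manganese enzyme of mitochondria, had 1676 counts in TRPV3-OE and 1269 in parental cells (log2 ratio 0.35, 0.24 to 0.45). CAT (ENSG00000121691, chromosome 11, 34438925 to 34472062, plus strand), the peroxisomal enzyme that splits hydrogen peroxide, had 334 counts (18.8 CPM, 16.8 to 20.9) in TRPV3-OE and 689 (40.2 CPM, 37.3 to 43.4) in parental cells. It was 2.14-fold lower (log2 ratio −1.10, −1.29 to −0.91). The SOD2 gene model in the files is 18985 bases of exon, which lowers its TPM.

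Glutathione transferases, which attach glutathione to electrophiles, went in opposite directions. GSTM3 (ENSG00000134202, chromosome 1, 109733932 to 109741038, minus strand), of the mu class, had 447 counts (25.1 CPM, 22.8 to 27.5) in TRPV3-OE and 148 (8.64 CPM, 7.31 to 10.2) in parental cells. It was 2.90-fold higher, the highest ratio among the 39 measured genes (log2 ratio 1.54, 1.27 to 1.82). GSTP1, the pi class enzyme and the main transferase of many epithelia, had 4768 counts (268 CPM) in TRPV3-OE and 8426 (492 CPM) in parental cells, 1.84-fold lower (log2 ratio −0.88, −0.93 to −0.83).

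GSTP1 still exceeded GSTM3 in both libraries, at 26.5 times its length-scaled level in TRPV3-OE and 141 times in parental cells. The membrane-bound MGST1 had 8931 counts in TRPV3-OE and 6986 in parental cells (log2 ratio 0.30, 0.25 to 0.34). MGST2, of the same membrane family, had 359 counts in TRPV3-OE and 465 in parental cells (log2 ratio −0.43, −0.63 to −0.23). The 4 genes summed to 823 TPM in TRPV3-OE and 1158 TPM in parental cells.

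Of the 5 haem and quinone genes, 3 were at least 1.5-fold lower in TRPV3-OE, where 14.2% of all measured genes were, and 1 of these at least 2-fold lower, where 5.35% were. NQO2, a quinone reductase that uses dihydronicotinamide riboside, had 194 counts (10.9 CPM, 9.42 to 12.5) in TRPV3-OE and 511 (29.8 CPM, 27.3 to 32.5) in parental cells, 2.74-fold lower (log2 ratio −1.45, −1.70 to −1.21). NQO1, the NADPH-using quinone reductase often taken as the marker of NRF2 activity, had 3610 counts (203 CPM, 196 to 209) in TRPV3-OE and 6129 (358 CPM, 349 to 367) in parental cells. It was 1.77-fold lower (log2 ratio −0.82, −0.88 to −0.76). Other transcripts share 15.3% of the 50-base windows of NQO1, which can lower its counts in both libraries. HMOX2, the constitutive haem oxygenase, had 613 counts (34.4 CPM) in TRPV3-OE and 1125 (65.7 CPM) in parental cells, 1.91-fold lower (log2 ratio −0.93, −1.08 to −0.79).

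HMOX1, the inducible haem oxygenase, had 73 counts in TRPV3-OE and 85 in parental cells. OSGIN1, an NRF2-responsive growth inhibitor, had 64 counts in TRPV3-OE and 71 in parental cells. The intervals of both ratios held 0 (−0.75 to 0.19 for HMOX1 and −0.72 to 0.30 for OSGIN1), so a difference was not detectable at this depth. Both inducible genes were low in each library, at 6.41 TPM in TRPV3-OE and 7.42 TPM in parental cells for HMOX1, and at 3.91 TPM in TRPV3-OE and 4.31 TPM in parental cells for OSGIN1.

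Of the 4 genes of NADPH supply and the pentose phosphate pathway, 1 was past 1.5-fold on the lower side and 1 on the higher side. Of all measured genes 14.2% were past it on the lower side and 12.7% on the higher side. TKT and TALDO1 run the non-oxidative pentose phosphate pathway. TKT had 16060 counts in TRPV3-OE and 21515 in parental cells, the most of the 41 genes in both (log2 ratio −0.48, −0.51 to −0.45). TALDO1 had 1820 counts (102 CPM) in TRPV3-OE and 3196 (187 CPM) in parental cells, 1.83-fold lower (log2 ratio −0.87, −0.95 to −0.78). PGD, which makes NADPH in the oxidative branch, had 2985 counts in TRPV3-OE and 3561 in parental cells (log2 ratio −0.31, −0.38 to −0.24). ME1, the cytosolic malic enzyme and a separate source of NADPH, had 1658 counts (93.1 CPM, 88.7 to 97.7) in TRPV3-OE and 881 (51.4 CPM, 48.1 to 54.9) in parental cells. It was 1.81-fold higher (log2 ratio 0.86, 0.74 to 0.98).

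The ferritin chains, which store iron in a form that cannot feed peroxide chemistry, both had ratios below 0 and stayed within 1.5-fold. FTL, the light chain and the highest of the 41 genes by TPM in both libraries, had 8177 counts (1967 TPM) in TRPV3-OE and 11736 (2805 TPM) in parental cells, with a log2 ratio of −0.58 (−0.62 to −0.54), just short of 1.5-fold. FTH1, the heavy chain with the ferroxidase, had 4744 counts (494 TPM) in TRPV3-OE and 5715 (591 TPM) in parental cells (log2 ratio −0.32, −0.38 to −0.27). Transcripts of other genes share 57.4% of the 50-base windows of FTH1 and 18.3% of those of FTL. Reads that align to several places are not counted by default, so both levels can be too low by an unknown amount. The 25 FTH1 pseudogenes in the files held 33 counts in TRPV3-OE and 35 in parental cells, and the 16 FTL pseudogenes held 10 in TRPV3-OE and 17 in parental cells.

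**Figure D3:**
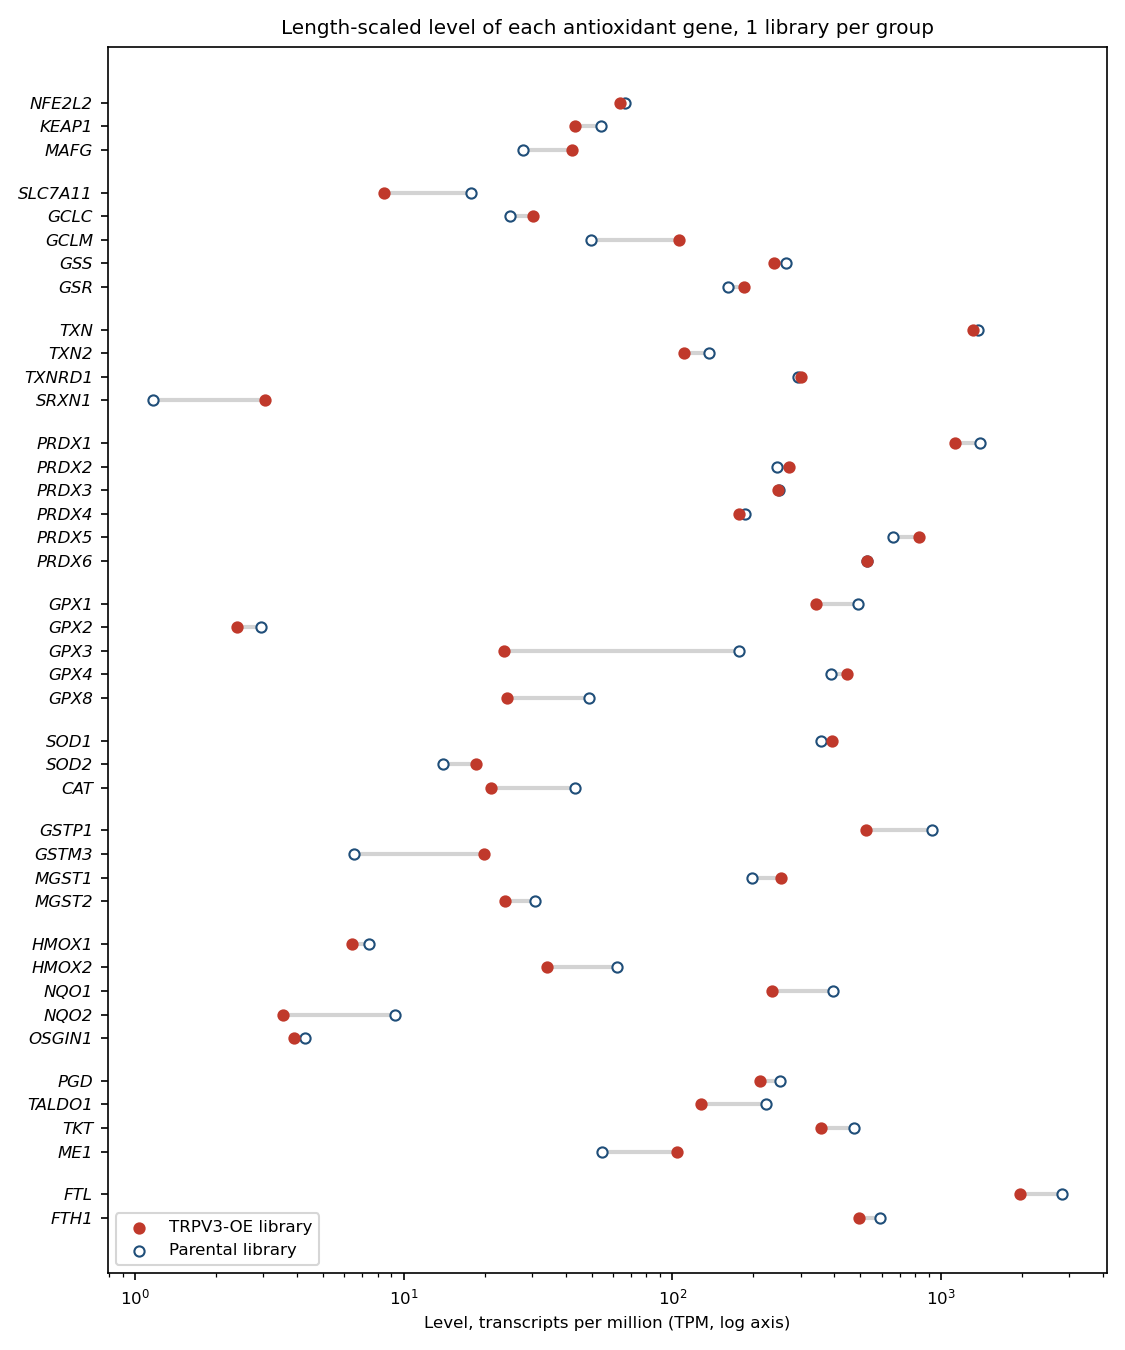
The level of each gene in TPM is drawn on a log axis, filled for the TRPV3-OE library and open for the parental library. Levels run from 2.40 to 1967 TPM in TRPV3-OE and from 1.17 to 2805 TPM in parental cells, with FTL highest in both, and the widest gap is that of GPX3 (23.7 TPM in TRPV3-OE and 176 TPM in parental cells).

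Several of the called genes lie in stretches of chromosome where neighbouring genes differ in the same direction. Each gene was set beside its local median, that is the median ratio (log2) of the 50 measured genes nearest to it. The local median lay beyond 0.5 in size for 9 of the 39 measured antioxidant genes (23.1%) and for 10.9% of all genes with such a median. Around GCLM it was 0.83 and around GSTM3 0.71, both on chromosome 1. It was −0.84 around NQO2 on chromosome 6, −0.72 around CAT and −0.68 around TALDO1 on chromosome 11, −0.56 around HMOX2 on chromosome 16 and −0.70 around both SLC7A11 and MGST2 on chromosome 4. PRDX4 on the X chromosome lay in a stretch at −0.72 but was itself at −0.14.

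With these medians subtracted, no gene stayed past 2-fold on the higher side (0 of 39) and 2 did on the lower side, GPX3 (−2.98) and GPX8 (−1.10). Over the 11438 measured genes with a local median, 5.09% were past 2-fold on the higher side and 3.75% on the lower side after the same subtraction. GSTM3 was then at 0.83, ME1 at 0.60, GSTP1 at −0.73 and NQO2 at −0.61, all still past 1.5-fold. With GPX3 and GPX8 that made 2 genes past 1.5-fold on the higher side, against 11% of those measured genes, and 4 on the lower side, against 8.84%. NQO1 was at −0.55, GCLM at 0.20, SLC7A11 at −0.44, CAT at −0.38, HMOX2 at −0.37 and TALDO1 at −0.19, all within 1.5-fold. The sign turned for 5 of the 39 genes. PRDX4 was then at 0.58, just under 1.5-fold, MGST2 at 0.27, TXNRD1 at 0.12, NFE2L2 at 0.01 and SOD1 at −0.16. Across the 39 genes, the ratio correlated with the median of its neighbours at r = 0.60 (Pearson; Spearman 0.68), and over 11438 measured genes at r = 0.35 (Spearman 0.48). These values describe 2 libraries, and genes near each other share neighbours. Whether the neighbourhood has a part in these ratios was not tested.

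**Figure D4:**
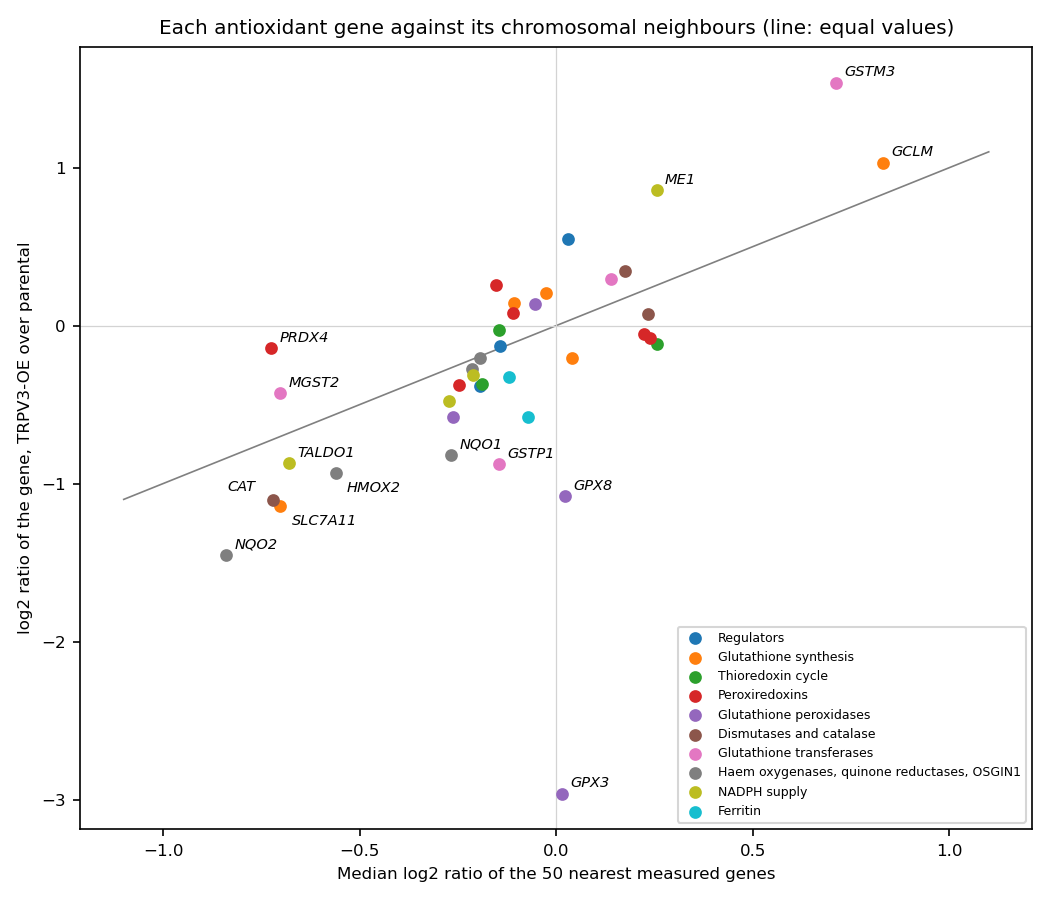
The log2 ratio of each measured antioxidant gene is plotted against the median of its 50 nearest measured genes, with a line of equal values. GCLM, TALDO1 and CAT lie near the line, whereas GPX3 (−2.96) and GPX8 (−1.08) lie below it with neighbours near 0.

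Other genes of these pathways were listed by role, with earlier results of these data known. Of 117 listed, 92 were measured. Their median log2 ratio was −0.10, and 2-fold was passed by 3 higher genes and 5 lower ones, against the 5.31% and 5.35% of all measured genes. Genes that control NRF2 had 0 of 10 past 2-fold in either direction, where 10.7% of all measured genes were. At 1.5-fold, 2 of the 10 were higher and 4 lower, against 12.7% and 14.2% of all measured genes. Among these control genes, BACH2, a repressor that also pairs with small MAF proteins, had 90 counts in TRPV3-OE and 45 in parental cells (log2 ratio 0.94, 0.41 to 1.49). MAFF, another small MAF, was at −0.85, the ligase subunit RBX1 at −0.70 and BTRC, part of another ligase that targets NRF2, at 0.70. Further NRF2 targets had a median of 0.03 over 13 measured genes, of which 1 passed 2-fold, on the lower side (5.35% of all measured genes). That gene was AKR1B10, an aldo-keto reductase, with 56 counts in TRPV3-OE and 478 in parental cells (log2 ratio −3.15, −3.58 to −2.75). The exporter ABCC3 was at 0.67, the aldehyde dehydrogenase ALDH3A1 at −0.67 and the nuclear protein PIR at −0.64.

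Further genes of glutathione handling had a median of 0.19 over 13 measured genes, and 2 passed 2-fold, both higher, where 5.31% of all measured genes were. GGT7, of the gamma-glutamyltransferase family, had 396 counts in TRPV3-OE and 68 in parental cells, 5.60-fold higher (log2 ratio 2.49, 2.11 to 2.88). OPLAH, which recycles 5-oxoproline to glutamate, had 388 counts in TRPV3-OE and 119 in parental cells, 3.14-fold higher (log2 ratio 1.65, 1.35 to 1.96). The medians of their 50 nearest genes were 0.01 and −0.02. Around some other named genes that median was farther from 0. It was −0.71 for PIR, −0.53 for GLRX5 and 0.74 for GSTM4, each on the same side as the gene's own ratio. For MAOA (−0.71) and AKR1B10 (0.44) it lay on the opposite side. CHAC1, which breaks glutathione down, was at 0.78 and the mitochondrial glutaredoxin GLRX5 at −0.49. Of the other glutathione transferases 1 of 7 passed 2-fold, on the higher side (5.31% of all measured genes). It was GSTO2 of the omega class, at 946 counts in TRPV3-OE and 345 in parental cells (log2 ratio 1.40, 1.22 to 1.58). GSTA4 was at 0.76, GSTM4, on chromosome 1 like GSTM3, at 0.56 and GSTZ1 at 0.24.

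Among further thioredoxin-like proteins, methionine sulfoxide reductases and sestrins, 2 of 13 passed 2-fold, both lower (5.35% of all measured genes were), around a median of −0.04. Both repair oxidised methionine. MSRB3 had 71 counts in TRPV3-OE and 360 in parental cells, 5.27-fold lower (log2 ratio −2.40, −2.79 to −2.03), and MSRA had 86 in TRPV3-OE and 187 in parental cells (log2 ratio −1.18, −1.56 to −0.80). TXNRD3 was at −0.87 and TXNDC12 at 0.63. Other NADPH suppliers had a median of −0.39 over 15 genes, of which 1 passed 2-fold, on the lower side (5.35% of all measured genes). H6PD, which feeds NADPH to the endoplasmic reticulum, had 218 counts in TRPV3-OE and 442 in parental cells (log2 ratio −1.08), and ME3 was at −0.65, MTHFD2 at −0.64 and IDH1 at −0.63.

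Of the iron genes 1 of 10 passed 2-fold, on the lower side (5.35% of all measured genes), around a median of −0.25. ACO1, the iron-sensing protein that controls ferritin translation, had 586 counts in TRPV3-OE and 1166 in parental cells (log2 ratio −1.05), and its relative IREB2 was at −0.42, the transferrin receptor TFRC at −0.66 and the ferroptosis suppressor AIFM2 at 0.62. Genes that build selenoproteins, on which GPX1, GPX3, GPX4 and TXNRD1 depend, had a median of −0.17. In either direction 0 of 7 were past 2-fold, against 10.7% of all measured genes. SEPHS2 was at −0.58, SEPSECS at 0.50, EEFSEC at −0.48 and SEPHS1 at −0.41. Of 15 oxidant sources 4 were measured, MAOA at 0.91, XDH at −0.84, ERO1A at 0.32 and CYBA at −0.08.

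**Figure D5:**
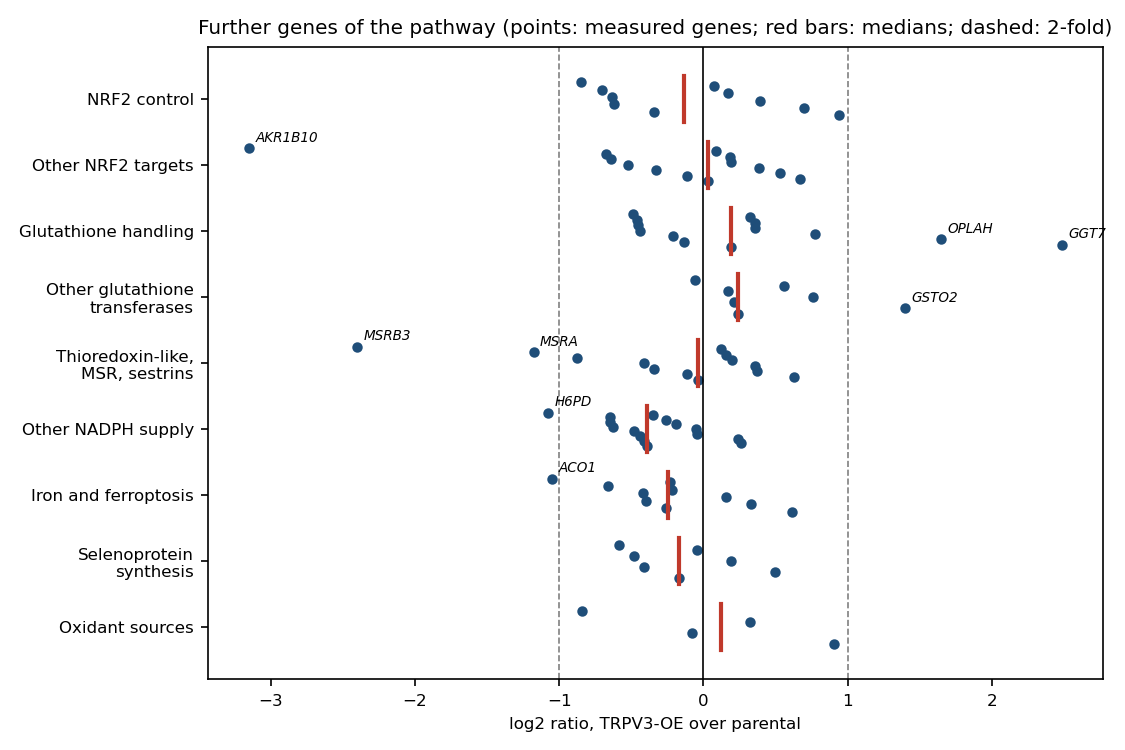
Each point is a measured gene outside the 41, placed by log2 ratio, TRPV3-OE over parental, in 9 lists, with red bars at the medians. Genes past 2-fold are named, among them GGT7 (2.49), OPLAH (1.65), GSTO2 (1.40), MSRB3 (−2.40) and AKR1B10 (−3.15).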

How the data were processed

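Per-gene raw counts were deposited, which the authors made with featureCounts 1.5.0-p3 on strand setting 2 on the GRCh38.p7 gene models of Ensembl 87, as the file headers record. The submitters' processing notes also name STAR and DESeq2, with no version. The headers show no option for reads with several alignments or over several genes, so by default these were left out. Library totals were 17477953 (TRPV3-OE) and 17450658 (parental), scaled by TMM factors of 1.02 (TRPV3-OE) and 0.981 (parental; edgeR 4.0.16, R 4.3.3). No model was fitted.

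CPM carries exact Poisson and the ratio exact conditional binomial (Clopper-Pearson) 95% intervals. The TPM scale uses the deposited gene lengths and no TMM factor. Between libraries it can therefore differ in direction from the ratio, as for PRDX6 (532 TPM in TRPV3-OE and 528 TPM in parental cells). A count of 0 became 0.5 in ratios. Symbols came from a gene name table, and SOD2 from GENCODE 29, as did transcripts. GSTT1 was not analysed here. From each of the 9 further lists up to 4 genes with the largest absolute ratios were named. All 41 genes were to be accounted for, with those past either fold limit and the regulators given in full. The 41 genes and the lists were chosen with earlier results of these data known. The calculation was run on simulated counts with counting error only, which checks the code and not the spread between cultures. Alternatives were 3 scalings (total counts, upper quartile, DESeq2 1.42.0), a prior count of 5, added pseudogene counts, subtraction of neighbours and minimums of 1, 20 and 500 counts. Intervals came from scipy 1.17.1 under Python 3.11.15 and figures from matplotlib 3.10.9.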

Additional observations from a re-analysis of the deposited data

How the results depend on the processing

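With the local median over 50 neighbours subtracted, 0 genes were past 2-fold on the higher side (2 without it) and 2 on the lower side (5 without it), and 4 were at least 1.5-fold lower (9 without it). Higher by 1.5-fold were then 2, and 3 without it. Of all measured genes with a local median, 5.09% were then past 2-fold on the higher side and 3.75% on the lower side, and 11% and 8.84% past 1.5-fold on the higher and the lower side. Under the 3 other scalings, the prior count of 5, the added pseudogene counts and the minimums of 1, 20 and 500 counts, these 4 numbers moved by at most 1, with MAFG added at 1.5-fold by the scalings and SRXN1 at both limits by the minimums of 1 and 20. The median log2 ratio of the measured genes ranged from −0.21 to −0.15. Of 234 values of single genes 182 stayed within their interval, 52 moved, 31 of them under subtraction of neighbours, and 0 of those past 1.5-fold reversed. Of genes within 1.5-fold, the sign turned under subtraction of neighbours for NFE2L2 (0.01), TXNRD1 (0.12), PRDX4 (0.58), MGST2 (0.27) and SOD1 (−0.16). Scaling moved the median of all measured genes from −0.03 to at most 0.03. The width of the interval limits genes of few counts. No paired analysis was possible because there was 1 library a group, and no replicate could be left out.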
